A study of Arabidopsis thaliana with 6 samples.

Results

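The genes described here are TIN1 (TUNICAMYCIN INDUCED 1, AT5G64510) and 8 genes of protein folding in the endoplasmic reticulum (ER). They are bZIP60 (AT1G42990), BIP1 (AT5G28540), BIP2 (AT5G42020), BIP3 (AT1G09080), CRT1A (AT1G56340), CRT1B (AT1G09210), CNX1 (AT5G61790) and PDIL1-1 (AT1G21750). They were picked by gene identifier, with earlier results of these data known, and are 9 of the 27629 entries in the count tables. RNA came from young Arabidopsis thaliana flower buds with anthers of stages 6 to 9, from plants of the Col background grown at 23 °C under 16 h of light and 8 h of dark. The transgenic plants carried BnA9::BnaC.MAGL8.a (written BnA9::BnMAGL8.1 in the labels), in which the tapetum promoter BnA9 drives a monoacylglycerol lipase gene of rapeseed, and the wild type (WT) plants carried no transgene. There were 3 libraries of each genotype, described as biological replicates. How many plants went into a library and the hour at which buds were taken are stated in none of the sources used. The authors' methods speak of transgenic lines in the plural, but which line gave which library is not stated. The p-values therefore measure only the spread between these 6 libraries.

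Secreted and membrane proteins enter the ER through the translocon, receive glycans and disulfide bonds there, and are folded by chaperones such as BiP, calnexin and calreticulin. When unfolded protein accumulates, the membrane sensor IRE1 splices the bZIP60 mRNA, and the bZIP60 protein together with bZIP28 turns on chaperone genes, a program called the unfolded protein response. The tapetum, the cell layer that feeds developing microspores and delivers pollen wall material, is a strongly secreting tissue. TIN1 is a plant-specific gene that was named for its induction by tunicamycin, an inhibitor of N-glycosylation, and Arabidopsis plants without it have altered pollen surfaces.

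The 6 libraries held 13519945 to 14729927 counts each, and levels are given as CPM, the count of a gene scaled to the total of its library, after correction by the trimmed mean of M values (TMM). Over 18642 genes tested with edgeR's quasi-likelihood test, 3 genes (0.0161%) passed a Benjamini-Hochberg adjusted p of 0.05, and DESeq2 called 62 (0.333%). The transgene had 5552, 853 and 9594 counts in transgenic replicates 1, 2 and 3, and 0 counts in each WT library, so the labels fit the genotype. The buds are whole organs. Flower bud markers (AP1, AP3, PI, AG, SEP3 and LFY) had a median log2 fold change of -0.00, with values from -0.06 (PI) to 0.68 (LFY, SE 0.72). Of 17 tapetum markers, 16 passed the filter on low counts, while the tapetum regulator DYT1 had no count in any library. In RNA of whole buds, fewer cells of a type and less RNA per cell cannot be told apart.

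Of the 8 genes that passed the filter on low counts (all but BIP3), TIN1 had the largest difference, with a mean level 3.43-fold higher in WT buds than in transgenic buds. The authors had already reported TIN1 as down-regulated in these data, so its rank among the members is not an independent result. TIN1, CRT1B and PDIL1-1 lay below every WT library in all 3 transgenic libraries, beside 6.62% of all genes tested that did so. The other abundant chaperone genes of the list, BIP1, BIP2, CNX1 and CRT1A, differed by at most 0.12 on the log2 scale, and bZIP60 followed a split of the libraries that crossed the genotypes. None of the 8 genes was called by edgeR, DESeq2 or limma-voom after Benjamini-Hochberg adjustment over all genes. At an unadjusted p under 0.05, edgeR gave 2 genes (TIN1 and CRT1B, both lower), against 4.26% of all genes tested that were lower at that threshold, and voom gave 3 genes (TIN1, CRT1B and PDIL1-1), against 9.31% of all genes in either direction. The edgeR count was 0 without WT replicate 1 and 1 without transgenic replicate 1 or 2. Over all genes tested, 750, 1039 and 786 genes had such a p in these fits, in that order, against 1275 with all 6 libraries. The median log2 fold change (transgenic over WT) of the 8 genes was -0.15, beside -0.01 over all genes, with 4 values above and 4 below 0.

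**Figure D1:**
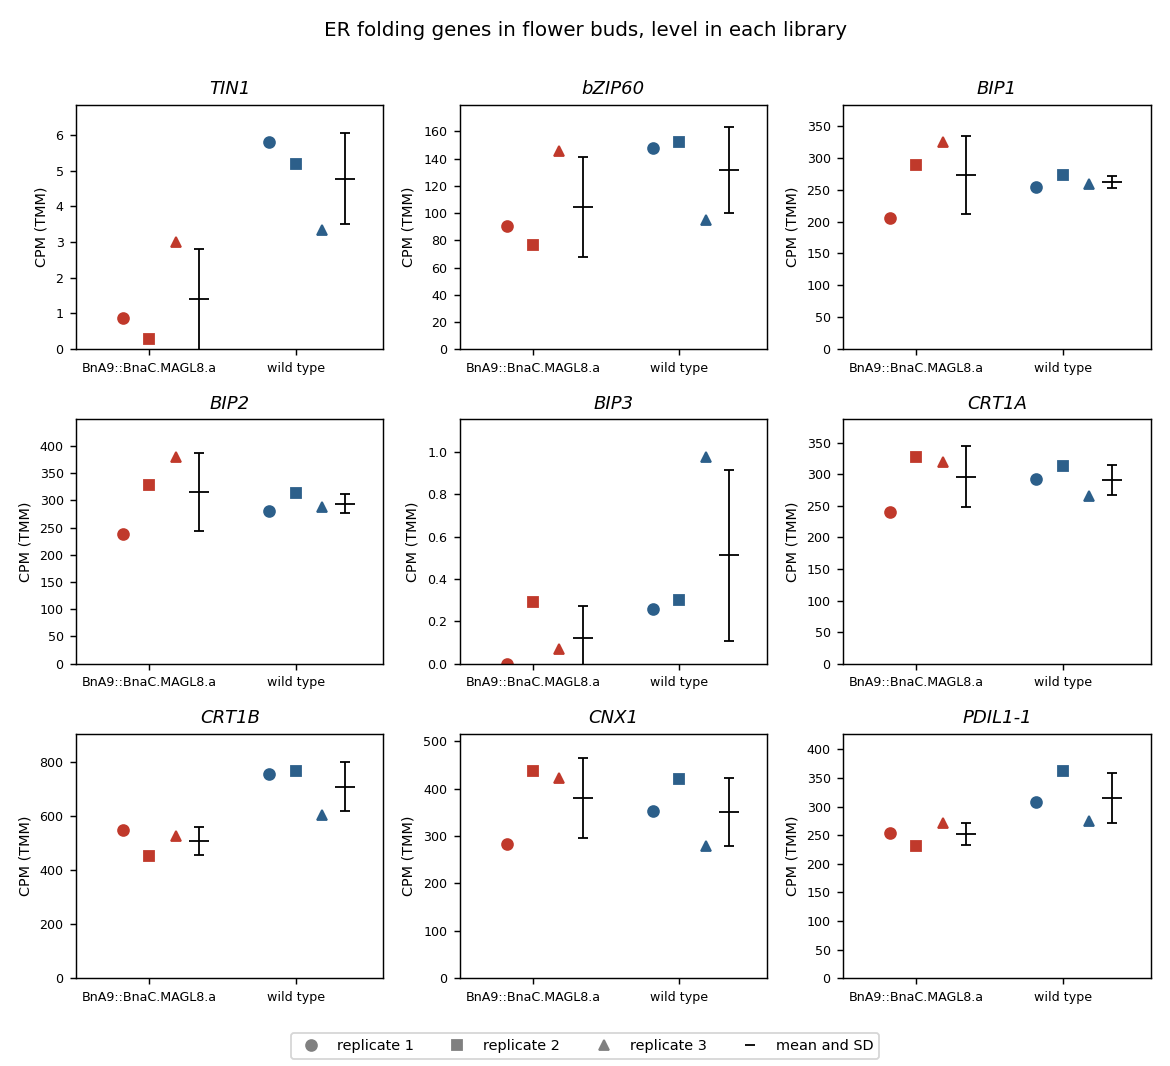
Level in CPM (TMM-scaled, linear axis from 0) of the 9 genes in each library, with BnA9::BnaC.MAGL8.a on the left and wild type on the right; symbols stand for replicates 1 to 3 and bars for the mean and SD of 3 libraries, cut off at 0. The transgenic libraries lie below every WT library for TIN1, CRT1B and PDIL1-1, and the groups overlap for the other 6 genes.

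The promoters of 6 of the 9 genes held matches to motifs known from the unfolded protein response, and 5 windows are shown to compare the gene that stood apart with a pair of BIP genes and both calreticulin genes. Each window is RefSeq sequence of TAIR10.1, 250 bases before to 50 bases after the annotated start, written 5' to 3' on the strand of the gene. Capitals mark matches to any of 4 motifs on either strand: ERSE-I (CCAAT, 10 free bases and CACG, which reads CGTG, 10 free bases and ATTGG on the other strand), ERSE-II (ATTGG, 1 free base and CCACG), and the UPRE in its forms TGACGTGG (CCACGTCA on the other strand) and TGACGTGA. Free bases stay in lower case.
TIN1 (chr5:25784154-25784453, plus strand): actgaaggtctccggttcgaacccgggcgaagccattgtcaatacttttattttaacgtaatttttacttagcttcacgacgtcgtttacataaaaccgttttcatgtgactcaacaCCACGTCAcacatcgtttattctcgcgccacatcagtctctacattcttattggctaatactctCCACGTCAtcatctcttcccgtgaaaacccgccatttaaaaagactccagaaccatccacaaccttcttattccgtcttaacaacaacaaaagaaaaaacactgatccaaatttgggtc
BIP2 (chr5:16810644-16810943, minus strand): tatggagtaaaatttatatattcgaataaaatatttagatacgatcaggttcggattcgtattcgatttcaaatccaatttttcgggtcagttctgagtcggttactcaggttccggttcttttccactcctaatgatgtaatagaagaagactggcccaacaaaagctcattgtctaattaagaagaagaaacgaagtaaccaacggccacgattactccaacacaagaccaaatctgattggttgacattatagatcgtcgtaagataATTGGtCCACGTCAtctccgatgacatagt
BIP3 (chr1:2931801-2932100, minus strand): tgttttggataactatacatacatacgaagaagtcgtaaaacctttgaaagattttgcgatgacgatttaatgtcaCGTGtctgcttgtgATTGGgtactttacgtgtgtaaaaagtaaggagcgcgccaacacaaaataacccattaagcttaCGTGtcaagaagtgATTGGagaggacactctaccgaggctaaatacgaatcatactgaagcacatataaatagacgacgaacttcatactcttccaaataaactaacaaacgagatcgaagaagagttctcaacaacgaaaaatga
CRT1A (chr1:21092660-21092959, minus strand): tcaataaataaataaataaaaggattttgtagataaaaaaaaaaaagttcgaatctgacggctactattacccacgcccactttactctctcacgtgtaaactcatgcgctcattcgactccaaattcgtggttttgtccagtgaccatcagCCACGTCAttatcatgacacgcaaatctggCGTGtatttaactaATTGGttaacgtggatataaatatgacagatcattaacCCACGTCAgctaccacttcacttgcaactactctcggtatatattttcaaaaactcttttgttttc
CRT1B (chr1:2976953-2977252, minus strand): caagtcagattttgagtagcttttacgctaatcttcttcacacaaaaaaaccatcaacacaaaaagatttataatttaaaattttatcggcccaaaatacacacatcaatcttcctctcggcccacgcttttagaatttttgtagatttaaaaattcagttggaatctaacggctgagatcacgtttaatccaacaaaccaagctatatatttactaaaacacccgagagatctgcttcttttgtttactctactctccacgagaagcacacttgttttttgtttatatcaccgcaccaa

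The TIN1 window held TGACGTGG at 2 places, 133 to 126 and 69 to 62 bases before the start. This form of the UPRE is found in 1.51% of 27443 Arabidopsis promoter windows of the same length, and 5 of the 9 genes had it (TIN1, BIP2, CRT1A, CNX1 and PDIL1-1). ERSE-I is found in 0.849% of windows and was present in BIP3, CRT1A, CNX1 and PDIL1-1. ERSE-II, in 0.0692% of windows, was present only in BIP2 among the 9 genes, where it overlapped the UPRE. No member had TGACGTGA, which is found in 0.67% of windows. The windows of CRT1B, BIP1 and bZIP60 held none of the 4 motifs, which says only that these letters are not there. The BIP1 window ends in a stretch that in BIP2 lies upstream of the ERSE-II match. The part of BIP1 that would correspond to that match was therefore not searched. Among 70 other listed ER genes, 14 had ERSE-I and 4 had TGACGTGG. Among the 8 genes tested, TIN1, with 2 UPRE matches, and CRT1B, with none, had the 2 smallest p-values (edgeR). PDIL1-1, with ERSE-I and UPRE matches, had a log2 fold change of -0.32. CRT1A and CNX1, also with both motifs, had log2 fold changes of 0.03 and 0.12. The part of these motifs in the levels was not tested.

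TIN1 lies on chromosome 5 at 25784404 to 25786385 (TAIR10.1, plus strand), has 3 exons and overlaps no other annotated gene. It had 11, 4 and 42 counts in transgenic replicates 1, 2 and 3, against 90, 69 and 48 counts in WT replicates 1, 2 and 3. Scaled, these were 0.880, 0.291 and 3.00 CPM in transgenic buds and 5.79, 5.18 and 3.35 CPM in WT buds. All 3 transgenic libraries were below all 3 WT libraries, but transgenic replicate 3 came close to the WT range. TIN1 averaged 1.39 ± 1.43 CPM in transgenic buds and 4.77 ± 1.27 CPM in WT buds (SD, n = 3 each). The log2 fold change was -1.76 (SE 0.58), with adjusted p = 0.715 by edgeR's quasi-likelihood test and 0.403 by DESeq2. Without transgenic replicate 3 the log2 fold change was -3.04, and without transgenic replicate 2 it was -1.26, so that the size of the difference rests on these single libraries.

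The spread of TIN1 among the transgenic libraries was wide. Its highest transgenic level was 10.3-fold its lowest, against 1.73-fold in WT buds. The SD of log2 CPM was 1.43 in transgenic buds and 0.40 in WT buds. Over all 18642 genes tested, 221 genes (1.19%) had a larger transgenic SD than TIN1, and of the 500 genes nearest to it in mean level over all 6 libraries, 0.6% did. These neighbours were not matched to the lower level of TIN1 in transgenic buds, where its counting error is larger. The WT spread was ordinary by the same measure, as 30.5% of genes had a larger WT SD. The other members that passed the filter varied less among transgenic libraries, with highest-to-lowest ratios between 1.17 (PDIL1-1) and 1.90 (bZIP60). They had at least 1054 counts in each transgenic library, whereas TIN1 had 4 to 42, so its ratio carries more counting error.

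Counting error alone gave 95% Poisson intervals of 0.439 to 1.58, 0.0793 to 0.745 and 2.16 to 4.06 CPM for transgenic replicates 1, 2 and 3, and 4.66 to 7.12, 4.03 to 6.55 and 2.47 to 4.44 CPM for WT replicates 1, 2 and 3. In order of level, transgenic replicates 2 and 1 overlapped each other in their intervals and no other library. The interval of transgenic replicate 3 overlapped those of WT replicates 3 and 2, that of WT replicate 3 also overlapped WT replicate 2, and WT replicates 2 and 1 overlapped each other. The lowest WT level was 1.12-fold the highest transgenic level and 11.5-fold the lowest. Most low counts were even numbers (75.5% to 78.0% of counts from 1 to 20), and if each read pair was counted as 2, the intervals would be wider: 1.86 to 4.59 CPM for transgenic replicate 3 and 0.352 to 2.09 CPM for transgenic replicate 1, which then overlap, while transgenic replicate 2 at 0.0352 to 1.05 CPM stays below transgenic replicate 3. Transgenic replicate 3 would then overlap all 3 WT libraries. These intervals cover counting error only.

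**Figure D2:**
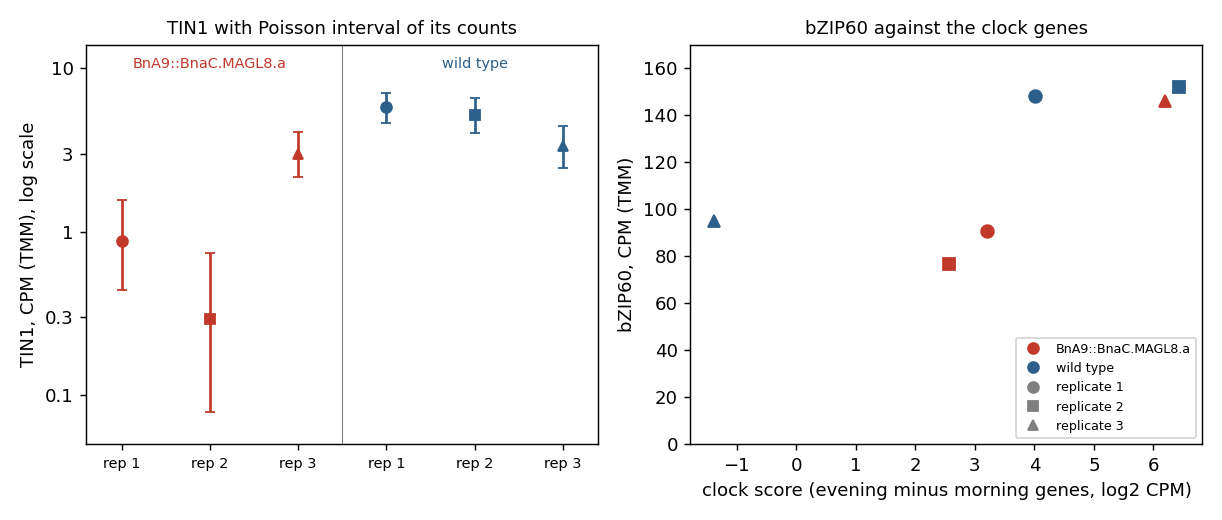
Left, TIN1 in CPM on a log axis in each library, with 95% Poisson intervals of the counts, BnA9::BnaC.MAGL8.a first and wild type after it; right, bZIP60 in CPM against the clock score (mean log2 CPM of evening genes minus that of morning genes), 1 point per library. TIN1 lies between 0.291 and 3.00 CPM in transgenic buds and between 3.35 and 5.79 CPM in WT buds, and the 3 libraries with bZIP60 between 146 and 152 CPM are 1 transgenic and 2 WT libraries.

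Other measures of the libraries are set beside TIN1 here. The transgene had 444, 62.1 and 686 CPM in transgenic replicates 1, 2 and 3, the same order as TIN1 in these 3 libraries, and its part in the TIN1 level was not tested. The summed level of the 17 tapetum markers was 2869, 1353 and 1871 CPM in transgenic buds, against 2260, 2983 and 3744 CPM in WT buds, so the groups overlapped. Within each genotype, the order of the libraries by this sum was not their order by TIN1. All 16 tested tapetum markers had a log2 fold change below 0, with a median of -0.72, beside 52.1% of all genes tested. An unadjusted p under 0.05 by edgeR was found for 4 of them (AMS, CYP704B1, bHLH089 and bHLH091), beside 4.26% of all genes lower at that p. The authors had already reported AMS, CYP704B1 and bHLH091 as lower in these data. They also described ACOS5, CYP703A2, MS2, PKSA, PKSB and TKPR1 as tending lower there, so the list is not independent of these data. Their real-time PCR had CYP703A2, PKSA and TKPR1 higher in transgenic plants. It had AMS, MS188, CYP704B1, ACOS5, MS2, PKSB, bHLH010, bHLH089 and bHLH091 lower. AMS, a transcription factor of the tapetum, had a log2 fold change of -0.77 (SE 0.18), the tapetum gene A9 of -0.72 and the late regulator MS1 of -0.20. The part of tapetum content in the TIN1 difference was not tested.

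The genes most like TIN1 over the 6 libraries, by Pearson's r of log2 CPM among 17905 genes with a mean of at least 1 CPM, were AT1G14680 (r = 0.995), AT5G62970 (0.993), WRKY40 (0.991), AT3G49490 (0.991) and APC11 (0.991). With 6 points and this many genes, such values are a description, and the points share library depth and scaling. Each r also spans both genotypes, so that genes lower in transgenic buds tend to have a high r with TIN1. All the genes just named lay lower in every transgenic library than in any WT library. WRKY40, a transcription factor of defence and stress responses, had 12.2, 6.84 and 35.7 CPM in transgenic buds and 74.7, 49.3 and 42.4 CPM in WT buds. APC11, a subunit of the anaphase-promoting complex, had a log2 fold change of only -0.31. Among the members, TIN1 had r = 0.87 with CRT1B, 0.86 with bZIP60 and 0.85 with PDIL1-1, but values between -0.07 and 0.14 with BIP1, BIP2, CRT1A and CNX1.

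bZIP60 encodes the transcription factor that IRE1 activates by splicing, and counts per gene do not separate its spliced and unspliced mRNA. It had 90.8, 76.7 and 146 CPM in transgenic buds and 148, 152 and 95.0 CPM in WT buds. The groups overlapped: transgenic replicate 3 and WT replicates 1 and 2 were high, and transgenic replicates 1 and 2 and WT replicate 3 were low. The log2 fold change was -0.33 (SE 0.26; adjusted p = 0.811, edgeR). The same division of the libraries was the main axis of the whole data set, as the first principal component (34.3% of the variance) was 26.2 in transgenic replicate 3 and 34.6 and 39.2 in WT replicates 1 and 2, and -23.3, -30.6 and -46.1 in transgenic replicates 1 and 2 and WT replicate 3.

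The clock score, a mean over evening genes minus a mean over morning genes, followed the same division of the libraries as bZIP60, but PRR5, LUX and PRR9, named after their values were seen, did not. PRR5, for example, was highest in transgenic replicate 1, at 38.2 CPM. The clock score was 3.20, 2.57 and 6.19 in transgenic buds and 4.01, 6.43 and -1.38 in WT buds, the lowest in WT replicate 3. In that library the morning gene LHY had 32.4 CPM and the evening gene TOC1 23.3 CPM, while in transgenic replicate 3 LHY had 0.143 CPM and TOC1 101 CPM. With the clock score as a covariate, bZIP60 had a log2 fold change of -0.47 (adjusted p = 0.361, edgeR) and TIN1 of -1.90 (adjusted p = 0.214). Within the high libraries, TIN1 had 3.00 CPM in transgenic replicate 3 and 5.79 and 5.18 CPM in WT replicates 1 and 2. Within the low libraries, TIN1 had 0.880 and 0.291 CPM in transgenic replicates 1 and 2 and 3.35 CPM in WT replicate 3.

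BIP1 and BIP2 encode the abundant luminal BiP chaperones of the HSP70 family. BIP1 had 206, 288 and 324 CPM in transgenic buds and 255, 273 and 259 CPM in WT buds, and BIP2 had 238, 329 and 380.4 CPM in transgenic buds and 280, 314 and 288 CPM in WT buds. In both genes the lowest and the highest of the 6 levels were transgenic, in replicates 1 and 3. The log2 fold changes were 0.06 (SE 0.18) for BIP1 and 0.10 (SE 0.18) for BIP2, with adjusted p = 0.967 and 0.929 (edgeR). The genes are close copies, with an identical run of 323 bases in their transcripts and 22.9% of the 50-base stretches of BIP1 present in BIP2, so reads may have been divided between them in a way that the sources do not state. Their ratio (BIP1 over BIP2) was 0.866, 0.876 and 0.853 in transgenic buds and 0.911, 0.870 and 0.900 in WT buds (exact two-sided permutation p = 0.2, where 0.1 is the smallest that 3 against 3 libraries allow).

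BIP3 encodes the BiP that is known as a sensitive marker of ER stress, being nearly silent without it. It had 0, 4 and 1 counts in transgenic replicates 1, 2 and 3 and 4, 4 and 14 counts in WT replicates 1, 2 and 3. The groups met at 4 counts, and BIP3 did not pass the filter on low counts. Fitted without that filter, it had a log2 fold change of -1.96 with adjusted p = 0.786 (edgeR), a value that rests on few counts. Per kilobase of transcript, BIP3 averaged 0.0571 CPM in transgenic buds and 0.242 CPM in WT buds, against 121 CPM per kilobase for BIP2 in transgenic buds and 112 in WT buds. This member was thus near the limit of detection in both genotypes.

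CRT1A and CRT1B encode calreticulins, soluble calcium-binding chaperones that hold glycoproteins during folding. CRT1B had 6854, 6197 and 7366 counts in transgenic buds, against 11733, 10221 and 8676 counts in WT buds. Scaled, this was 549, 451 and 526 CPM in transgenic buds and 755, 767 and 605 CPM in WT buds, without overlap. CRT1B averaged 509 ± 51.2 CPM in transgenic buds and 709 ± 90.2 CPM in WT buds (SD, n = 3 each). Its log2 fold change was -0.48 (SE 0.16), with adjusted p = 0.720 by edgeR and 0.412 by DESeq2.

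CRT1A had 241, 328 and 320 CPM in transgenic buds and 293, 314 and 266 CPM in WT buds, with a log2 fold change of 0.03 (SE 0.16; adjusted p = 0.985, edgeR). Within a library, CRT1B was 2.28, 1.37 and 1.65 times CRT1A in transgenic buds and 2.58, 2.45 and 2.28 times CRT1A in WT buds. The ratio averaged 1.77 ± 0.463 in transgenic buds and 2.43 ± 0.153 in WT buds (SD, n = 3 each), a log2 difference of -0.49 (exact two-sided permutation p = 0.1, the smallest that the design allows). As CRT1A was near 0, this difference mostly repeats that of CRT1B (-0.48) and adds little to it. Transgenic replicate 1 and WT replicate 3 had nearly the same ratio. The transcripts share 3 stretches of 50 bases, so few reads could be assigned to either. Per kilobase, CRT1B was the most abundant of the 9 genes in both genotypes, with 231 CPM in transgenic buds and 322 CPM in WT buds.

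**Figure D3:**
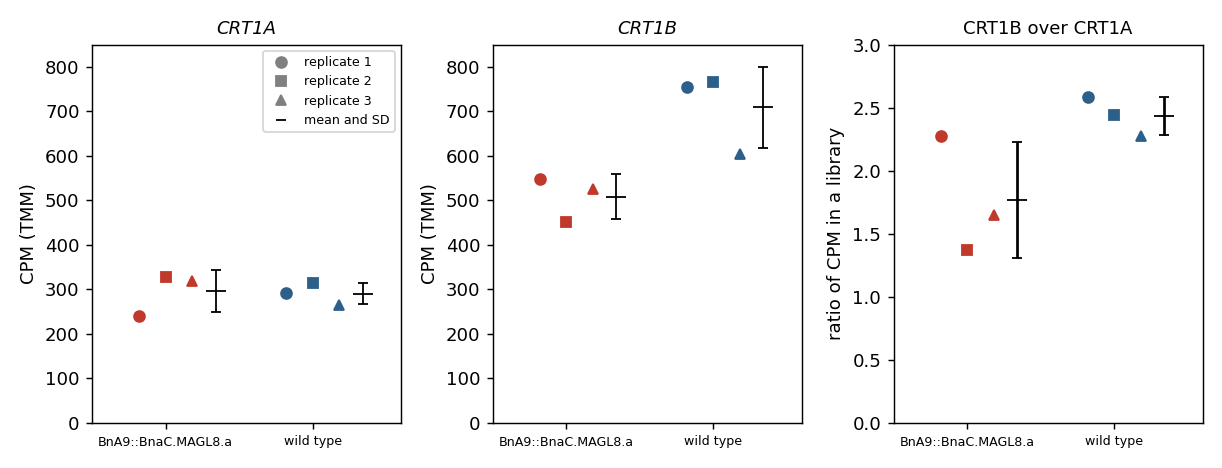
Level in CPM (linear axis from 0) of CRT1A and CRT1B, and the ratio of CRT1B to CRT1A within each library, for BnA9::BnaC.MAGL8.a (left, red) and wild type (right, blue); symbols stand for replicates, bars for the mean and SD of 3 libraries. CRT1B lies between 451 and 549 CPM in transgenic buds and between 605 and 767 CPM in WT buds, while the CRT1A groups overlap.

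CNX1 encodes calnexin, the membrane-bound lectin chaperone that works in the same glycoprotein cycle as calreticulin. It had 283, 437 and 422 CPM in transgenic buds and 354, 420.5 and 279 CPM in WT buds, so the groups overlapped. The log2 fold change was 0.12 (SE 0.21; adjusted p = 0.929, edgeR). CNX1 and CRT1A varied together (r = 0.96 over the 6 libraries), and BIP1 with BIP2 (r = 0.99), whereas CNX1 had r = -0.10 with CRT1B.

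PDIL1-1 encodes a protein disulfide isomerase, which forms and reshuffles disulfide bonds in new proteins. It had 254, 232 and 271 CPM in transgenic buds and 308, 362 and 274 CPM in WT buds. The groups did not overlap, but transgenic replicate 3 and WT replicate 3 were almost level. PDIL1-1 averaged 252 ± 19.5 CPM in transgenic buds and 315 ± 44.1 CPM in WT buds (SD, n = 3 each). The log2 fold change was -0.32 (SE 0.15), with adjusted p = 0.722 by edgeR, and its unadjusted p was above 0.05. PDIL1-1 had r = 0.93 with CRT1B over the 6 libraries, and both genes were lower in the transgenic libraries.

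The rest of the ER folding machinery was measured with 70 listed genes in 6 groups, of which 69 were tested and none was called by edgeR or DESeq2. Their log2 fold changes had a median of -0.05, 42 were below and 27 above 0, and 65 lay within 0.5 of 0. At an unadjusted p under 0.05, edgeR gave 2 lower genes (ERO1 and HSP70-17) and 1 higher gene (OST1A), against 6.84% of all genes tested in either direction. ERO1, the oxidase that recharges protein disulfide isomerase, had 80.7, 51.2 and 93.2 CPM in transgenic buds and 128, 101 and 97.1 CPM in WT buds (log2 fold change -0.53, SE 0.22). HSP70-17, an HSP70-type protein of the ER, averaged 30.7 CPM in transgenic buds and 42.0 CPM in WT buds (log2 fold change -0.45, SE 0.19). OST1A, a ribophorin subunit of the oligosaccharyltransferase that attaches N-glycans, averaged 105 CPM in transgenic buds and 84.0 CPM in WT buds (log2 fold change 0.32, SE 0.12).

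Of the 14 other disulfide isomerases and oxidoreductases, 13 had a log2 fold change below 0, with a median of -0.20, beside 52.1% of all genes tested that were below 0. Besides ERO1, the lowest p-values were those of PDIL1-4 (-0.28, SE 0.14), PDIL1-5 (-0.61, SE 0.37) and PDIL1-6 (-0.42, SE 0.26), none under 0.05. The 11 tested sensors and transcription factors had a median of -0.02, with bZIP17 at -0.26 (SE 0.13), NAC089 at -0.43 (SE 0.33), IRE1B at 0.19 (SE 0.17) and the cell death suppressor BI-1 at 0.13 (SE 0.12). The 10 other chaperones and cochaperones had a median of -0.03, with the J-domain cochaperones ERDJ2B at -0.46 (SE 0.21), ERDJ3A at -0.33 (SE 0.24) and ERDJ3B at -0.26 (SE 0.20).

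The remaining ER groups also had medians near 0. The 13 genes of N-glycosylation and glucose trimming had a median of 0.05, with the folding sensor UGGT at -0.35 (SE 0.21), OST3/6 at -0.26 (SE 0.15) and DAD2 at -0.28 (SE 0.17). The 9 translocon genes had a median of 0.08, with SEC61G1 at 0.27 (SE 0.18), SEC61G2 at 0.23 (SE 0.21), SEC61G3 at 0.17 (SE 0.14) and SEC61B2 at -0.38 (SE 0.37). The 12 genes of ER-associated degradation, which sends misfolded proteins to the proteasome, had a median of -0.06, with HRD1B at -0.55 (SE 0.34), DER2.1 at -0.25 (SE 0.18), UBC32 at -0.10 (SE 0.13) and CDC48A at 0.14 (SE 0.15). Of 7 heat shock genes of the cytosol and organelles, 5 were tested, with a median of -0.19 that became 0.29 in limma-voom.

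**Figure D4:**
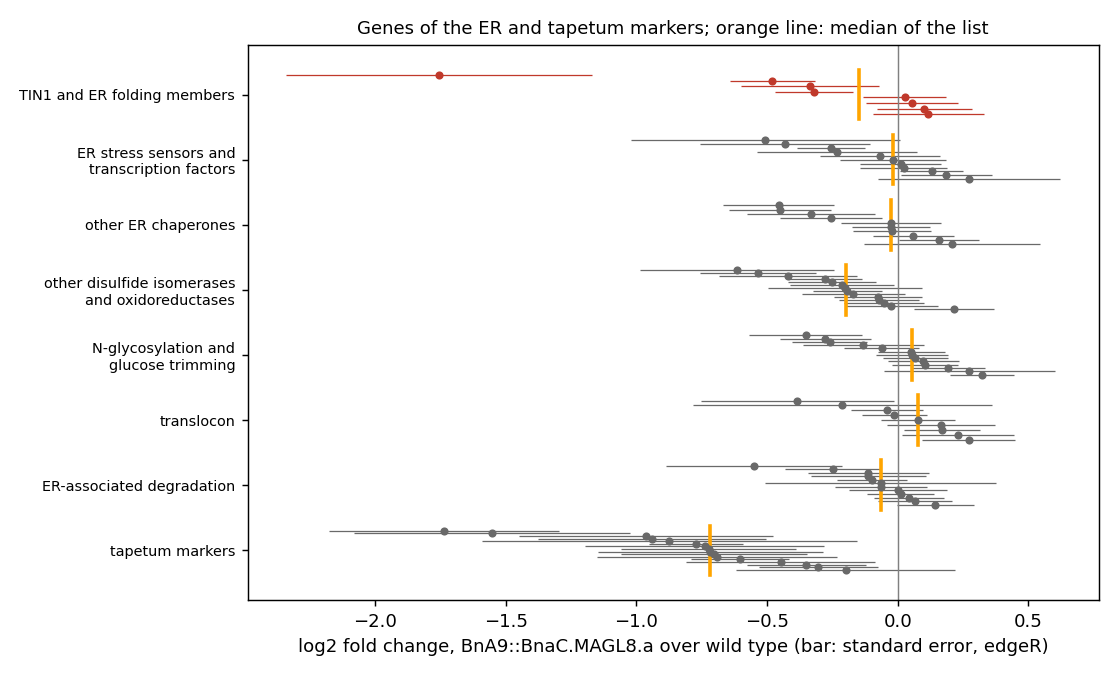
Log2 fold change (BnA9::BnaC.MAGL8.a over wild type) of each tested gene of 8 lists, with bars for the standard error of edgeR's fit and an orange line for the median of the list. TIN1 at -1.76 lies outside the range of the 69 other tested ER genes, and the tapetum markers have a median of -0.72.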

How the data were processed

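RNA-seq libraries of flower buds were compared between 3 transgenic and 3 WT samples, grouped by the genotype in the labels. The deposited values are raw counts per gene, which the authors made with HISAT2 and featureCounts on TAIR10 with the transgene sequence added. Tool versions, the use of strand, multiply mapped reads and the counting of mates were not given in the sources used here.

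Genes were filtered with filterByExpr by genotype (minimum count 10, minimum total 15), scaled by TMM, and tested with edgeR 4.0.16 (glmQLFit and glmQLFTest, R 4.3.3, genotype only), with Benjamini-Hochberg adjustment over all 18642 genes tested and a threshold of 0.05. TIN1 passed the filter through transgenic replicates 1 and 3 and the WT libraries. Genes passing held 99.86% to 99.91% of the counts of each library. Log2 CPM used a prior count of 2. DESeq2 1.42.0 and limma 3.58.1 (voom) were alternatives, beside other scaling, filters, a replicate block, the clock score and leaving out each library. Replicates differed beyond sampling noise (chi-square per degree of freedom 14.7 to 52.8). Scripts were tested on simulated data.

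The member genes and the gene lists were chosen with earlier results of these data known. The genes named were the members, up to 4 genes with the smallest p of each other ER list, LHY and TOC1 for the clock, A9, AMS and MS1 for the tapetum, and the 5 genes most correlated with TIN1. Other genes were named as members of a marker list or where a count was 5 or fewer. Promoter windows were read from the RefSeq TAIR10.1 genome, whose gene table held all 119 listed genes. Figures were drawn with matplotlib 3.10.9.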

Additional observations from a re-analysis of the deposited data

How the results depend on the processing

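TIN1 had a lower level in transgenic buds under all 15 alternatives, with a log2 fold change from -3.04 (without transgenic replicate 3) to -1.26 (without transgenic replicate 2), an adjusted p between 0.214 and 1.00 (edgeR, DESeq2 or voom) and an unadjusted p under 0.05 in 13 of them. CRT1B ranged from -0.58 to -0.39, with an unadjusted p under 0.05 in 13 of 15, PDIL1-1 from -0.41 to -0.21 (3 of 15) and bZIP60 from -0.65 to -0.15 (2 of 15). No member was called under any alternative. The count of members with an unadjusted p under 0.05 was 4 with the clock score as a covariate (TIN1, CRT1B, bZIP60 and PDIL1-1). Over all genes, 1979 of 18642 had such a p in that fit, against 1275 in the main edgeR fit. The count of members was 0 to 3 when 1 library was left out, being 0 without WT replicate 1 and 1 without transgenic replicate 1 or 2. Over all genes it was then 750 of 18890, 1039 of 19009 and 786 of 19014, in that order. It was 1530 of 18960 without transgenic replicate 3 and 1764 of 18956 without WT replicate 3, where 3 members had such a p. The highest-to-lowest ratio of TIN1 in transgenic buds was 3.02 to 10.3 when 1 library was left out, with 3.02 without transgenic replicate 3 and 3.41 without transgenic replicate 2. Genes close to 0 changed sign when 1 library was left out: BIP1 ranged from -0.087 (without transgenic replicate 3) to 0.22, BIP2 from -0.053 (without transgenic replicate 3) to 0.27, CRT1A from -0.048 (without transgenic replicate 2; -0.029 without transgenic replicate 3 and -0.033 without WT replicate 3) to 0.16, and CNX1 from -0.024 (without WT replicate 3) to 0.29. The median over the members was -0.23 to -0.04 when 1 library was left out, and -0.32 with no filter, where BIP3 joined them at -1.96. Over all genes, 62 were called by DESeq2, 0 by voom, 1 with robust empirical Bayes, and 0 to 5 when 1 library was left out, against 3 in the edgeR fit; the cause was not tested. Depth limits TIN1 and BIP3, whose counts were below 100 in every library, and no other member.

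The sources do not say that the replicate numbers pair the libraries. Same-numbered libraries had correlations of -0.08, -0.10 and -0.35 in their deviations from the genotype means. With 3 libraries of each genotype, such values cannot show whether same-numbered libraries shared a collection or a batch. With the replicate number as a block, TIN1 had a log2 fold change of -1.93 (adjusted p = 0.887, edgeR), and 0 genes were called.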
